A study of Mus musculus with 12 samples.

Results

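The 42 genes described here encode the machinery that copies DNA and the enzymes that make its building blocks. They were chosen by function, with earlier results of these data known. All 42 were found among the 48795 genes listed for the 12 libraries, all 42 had 10 or more counts in total, and all 42 passed the filter on low values, as did 11228 genes in all (CPM, the count scaled by library size, above 1.5 in 2 or more libraries). RNA was sequenced from mouse bone marrow-derived macrophages (BMDMs), which are grown from bone marrow with the growth factor M-CSF. The 6 groups had 2 libraries each. WT BMDMs (strain given as C57BL/6 in the labels and as C57BL/6NJ in the study's methods) and Acod1-/- BMDMs (strain given as C57BL/6NJ-Acod1em1(IMPC)J/J, in which the gene of the enzyme that makes itaconate is edited in the whole animal) were each treated with vehicle, with particulate matter (PM, an urban dust standard at 20 µg/cm2 for 24 h), or with PM after 2 h of pretreatment with 4-octyl itaconate (OI, a form of itaconate that enters cells, at 0.25 mM). OI was sequenced only together with PM in these libraries. The labels do not say whether the 2 libraries of a group came from separate animals or cultures, so the p-values measure the spread between these libraries, which may be technical.

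Replication starts at origins, where ORC, Cdc6 and Cdt1 load the MCM helicase onto DNA before S phase. Cdc45, the GINS complex and Mcm10 then switch the helicase on, primase and the polymerases copy the strands, and PCNA, the sliding clamp loaded by the RFC complex, holds the polymerases on DNA. RPA covers the single strands, Fen1 and Lig1 join the lagging strand, and ribonucleotide reductase, thymidylate synthase, thymidine kinase and dUTPase supply or guard the nucleotide pool. Many of these genes are transcribed as cells pass from G1 into S phase under E2F factors. Macrophages grown with M-CSF go on dividing in culture, while most tissue macrophages divide rarely.

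Library totals ranged from 33616577 to 36817898 counts. Acod1 itself was raised by PM in every PM library, and the PM libraries labelled Acod1-/- still had 108 and 94.1 CPM against 181 and 170 in WT. A gene-level count does not tell the edited exons from the rest, so this gene does not check the genotype labels, and the groups are named as labelled. Nnt, a gene that differs between C57BL/6 substrains, had 21.2 to 37.7 CPM in the 6 WT libraries and 52.0 to 74.3 CPM in the 6 Acod1-/- libraries, and any difference in background between the mice cannot be told apart from genotype. Macrophage markers (8 of 8 passed the filter) summed to 14278 to 14599 CPM with vehicle, 23189 to 27338 CPM with PM and 14428 to 16637 CPM with OI+PM over both genotypes, most of it from Lyz2 (9084 to 21225 CPM). Other macrophage markers moved with OI, among them Fcgr1 (log2 fold change of -1.93 in WT and -2.14 in Acod1-/- BMDMs), Cd14 (-0.75 and -1.53), Mertk (-1.10 and -1.07), Adgre1 (-0.63 and -0.57), Csf1r, the M-CSF receptor (-0.30 and -0.49), and Cd68 (0.21 in WT; edgeR, adjusted p = 0.0451). Neutrophil markers summed to 2.00 to 2.02 CPM with PM and 0.101 to 0.359 CPM with OI+PM in WT, and to 3.18 to 4.83 and then 0.678 to 1.41 CPM in Acod1-/- libraries. Fibroblast markers summed to 1.24 to 1.43 and then 0.271 to 0.599 CPM in WT, and to 2.38 to 2.39 and then 0.493 to 1.11 CPM in Acod1-/- libraries. Haematopoietic progenitor markers summed to 2.6 to 2.86 CPM with vehicle, 1.66 to 2.13 with PM and 1.74 to 2.47 with OI+PM in WT, and to 4.13 to 4.47, 1.41 to 2.62 and 1.83 to 1.94 CPM in Acod1-/- libraries. Within that list Cd34 fell with OI (log2 fold change of -1.91 in WT and -1.45 in Acod1-/- BMDMs; edgeR, adjusted p = 0.0113 and 0.0235) and with PM (-1.09 and -1.45; adjusted p = 0.0324 and 0.00523), while Gata2, which did not pass the filter and was not tested, had 0.657 and 0.98 CPM with PM and 1.47 and 2.23 CPM with OI+PM in WT libraries. Summed levels of dendritic, T and NK, B, mast and erythroid cell markers were at most 0.955 CPM each, with Cd3e, Hba-a1 and Fcer1a at 0 in all libraries. The part of these levels in the results below was not tested. The 2 libraries of the WT PM group and of the WT OI+PM group differed from each other along gene length (Spearman's rho of the difference with exonic length, across genes, of -0.59 and -0.60), against -0.29 to 0.35 in the other 4 groups.

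Promoter sequence is shown first for 6 genes that span the range of responses described below. The windows hold 250 bases before and 50 bases after the RefSeq transcript start (GRCm38.p6) and are written 5′ to 3′ on the strand of the gene. Capitals mark exact matches to the E2F-type letters TTTCCCGC, TTTCGCGC, TTTGCCGC or TTTGGCGC on either strand, where matches on opposite strands can overlap. Pclaf (chr9:65890073-65890372 on the plus strand), Mcm5 (chr8:75109259-75109558 on the plus strand) and Orc1 (chr4:108579204-108579503 on the plus strand) fell far with OI and hold a match. Tk1 (chr11:117825965-117826264 on the minus strand) fell as far and holds none. Rfc3 (chr5:151651159-151651458 on the minus strand) holds 2 matches and fell little, and Pcna (chr2:132253131-132253430 on the minus strand) holds none and did not pass the test.
Pclaf: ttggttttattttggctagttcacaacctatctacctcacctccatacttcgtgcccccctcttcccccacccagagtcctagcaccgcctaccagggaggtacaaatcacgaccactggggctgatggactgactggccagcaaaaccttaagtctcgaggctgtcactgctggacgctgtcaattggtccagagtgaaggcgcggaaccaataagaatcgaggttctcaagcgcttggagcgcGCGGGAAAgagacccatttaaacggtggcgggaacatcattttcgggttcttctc
Mcm5: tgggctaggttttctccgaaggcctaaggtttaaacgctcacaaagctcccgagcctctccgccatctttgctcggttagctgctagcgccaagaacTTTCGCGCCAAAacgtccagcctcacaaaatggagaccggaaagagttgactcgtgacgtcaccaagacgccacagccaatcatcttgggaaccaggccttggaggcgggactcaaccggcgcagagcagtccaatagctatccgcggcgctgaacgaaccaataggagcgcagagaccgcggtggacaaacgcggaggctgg
Orc1: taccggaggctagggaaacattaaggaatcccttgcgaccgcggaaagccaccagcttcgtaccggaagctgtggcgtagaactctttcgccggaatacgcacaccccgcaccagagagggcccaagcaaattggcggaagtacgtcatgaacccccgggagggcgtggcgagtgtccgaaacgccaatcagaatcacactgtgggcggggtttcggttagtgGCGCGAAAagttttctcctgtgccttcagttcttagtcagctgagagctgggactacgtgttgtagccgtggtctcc
Tk1: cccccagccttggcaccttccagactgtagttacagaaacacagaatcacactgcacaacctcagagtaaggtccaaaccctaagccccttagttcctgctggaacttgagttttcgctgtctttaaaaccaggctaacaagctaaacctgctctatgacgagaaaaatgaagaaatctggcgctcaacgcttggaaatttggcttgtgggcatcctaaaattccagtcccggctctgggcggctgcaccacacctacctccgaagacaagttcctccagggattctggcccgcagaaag
Rfc3: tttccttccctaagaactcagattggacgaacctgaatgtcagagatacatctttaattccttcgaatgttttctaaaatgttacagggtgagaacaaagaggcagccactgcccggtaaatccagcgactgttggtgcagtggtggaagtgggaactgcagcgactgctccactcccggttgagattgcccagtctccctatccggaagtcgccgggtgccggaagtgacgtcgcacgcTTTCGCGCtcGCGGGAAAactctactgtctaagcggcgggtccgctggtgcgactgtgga
Pcna: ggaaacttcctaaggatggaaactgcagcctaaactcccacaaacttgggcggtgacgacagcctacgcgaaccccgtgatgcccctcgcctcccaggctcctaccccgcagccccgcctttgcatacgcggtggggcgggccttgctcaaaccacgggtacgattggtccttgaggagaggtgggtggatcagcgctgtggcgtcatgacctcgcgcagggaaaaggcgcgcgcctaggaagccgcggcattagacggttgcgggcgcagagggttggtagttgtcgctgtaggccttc

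A window was found for 34 of the 42 genes, 5 of which had several (Mcm7, Pold2, Fen1, Lig1 and Uhrf1), and for these the window closest to the annotated start of the gene was taken, as for all genes. The other 8 (Mcm4, Gins1, Gins2, Gins4, Rfc2, Pole, Prim2 and Rnaseh2b) are named only. At least 1 match was present in 13 of the 34 windows (38.2%), against 377 of 8803 windows (4.28%) of the tested genes outside the list. At least 2 matches were present in 5 of the 34 (14.7%), Mcm3, Mcm5, Mcm6, Mcm7 and Rfc3, against 15 of 8803 (0.17%). In Mcm5 the matches began 153 and 149 bases before the start and overlapped on opposite strands, as did those at 110 and 106 bases in Mcm6, which had a further copy at 47 bases. In Pclaf the match began 5 bases before the start, in Orc1 27 bases, and in Cdc6 and Pola1 138 bases. A match is a run of letters and not a measured binding site, and a window without it says nothing of other sites. The log2 fold change with OI in WT BMDMs had a median of -2.22 over the 13 genes with a match (from -5.77 to -0.50) and of -1.51 over the 21 without (from -5.70 to -0.04), so the ranges covered each other for most of their length. Lig1 and Uhrf1 are among the 21, but each holds a match in another of its windows.

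PM alone, compared with vehicle, left most of the 42 transcripts close to their starting level. In WT BMDMs 3 genes fell and none rose by edgeR's quasi-likelihood test (adjusted p of 0.05 or less over all tested genes), where 12.2% of all tested genes fell and 12.6% rose. The median log2 fold change of the 42 was 0.07, against 0.01 for all tested genes, and the values ran from -0.43 to 0.34. In Acod1-/- BMDMs 8 of the 42 fell and none rose, where 11.9% of all tested genes fell, with a median of -0.16 and a range from -0.57 to 0.25. At an unadjusted p below 0.05, 5 of the 42 were higher and 5 lower in WT, against 2246 and 2332 of the 11228 tested genes, and 0 were higher and 13 lower in Acod1-/- BMDMs, against 1980 and 2184. DESeq2 called 3 genes in WT and 9 in Acod1-/- BMDMs in all. The Acod1-/- count was 19 with the compared groups fitted alone (17 lower), where 5658 of the 11228 tested genes were called in either direction. It was 14 with total count scaling (all lower) and 14 with a correction for gene length and the replicate block (12 lower). The counts over all tested genes under these other fits are not given here. The comparison of PM with vehicle and that of OI+PM with PM share the PM libraries.

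The 3 genes that fell with PM in both genotypes were Pcna, Pola1 and Rrm1. Pcna had 340 and 333 CPM with vehicle and 239 and 280 CPM with PM in WT libraries, and 311 and 313 CPM with vehicle and 210 ± 4.63 CPM (mean ± SD, n = 2) with PM in Acod1-/- libraries. Every PM library lay below every vehicle library, with log2 fold changes of -0.37 ± 0.0820 (SE, n = 2 against 2; edgeR, adjusted p = 0.00956) and -0.57 ± 0.0823 (adjusted p = 0.000741). Pola1, the catalytic subunit of the polymerase that lays down primers with primase, fell by 0.43 on the log2 scale in WT (edgeR, adjusted p = 0.04) and by 0.51 in Acod1-/- BMDMs (adjusted p = 0.0189), a call lost in Acod1-/- BMDMs without any 1 of the 4 libraries and in WT without the second PM library (adjusted p = 0.264). Rrm1, the large subunit of ribonucleotide reductase, had 176 and 183 CPM with vehicle and 144 and 150 CPM with PM in WT libraries, a log2 fold change of -0.29 (edgeR, adjusted p = 0.0109). In Acod1-/- libraries it had 166 and 170 CPM with vehicle and 135 and 131 CPM with PM, a log2 fold change of -0.33 (adjusted p = 0.00453). With a correction for gene length the Rrm1 values were -0.05 (adjusted p = 0.733) and -0.13 (adjusted p = 0.383), and its exons span 11012 bases. Without either WT vehicle library all calls in WT were lost, and without the first WT PM library other genes of the 42 passed, some of them higher. The counts over all tested genes in these fits are not given here.

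The other 5 genes that fell with PM in Acod1-/- BMDMs were Mcm3, Mcm4, Pole, Rrm2 and Pclaf. Pole, the catalytic subunit of the leading strand polymerase, had a log2 fold change of -0.50 (edgeR, adjusted p = 0.00961), Rrm2, the small subunit of ribonucleotide reductase, of -0.36 (adjusted p = 0.00837) and Pclaf, a PCNA-binding protein, of -0.35 (adjusted p = 0.00596). In WT BMDMs their values were -0.26, -0.07 and -0.18, none past the threshold. The difference between the genotypes in the response to PM was tested as an interaction, and edgeR called none of the 42 and 0% of all tested genes, with 5 of the 42 and 273 of the 11228 at an unadjusted p below 0.05. DESeq2 called 0 of the 42 and 3 of all genes. The interaction estimates were below 0 for all 42 genes, with a median of -0.19 against -0.00 for all tested genes, and the 42 share the same 8 libraries. Leaving out 1 library at a time gave 2 to 5 called genes in Acod1-/- BMDMs, with 2 without the first vehicle library or the first PM library, 3 without the second vehicle library and 5 without the second PM library. The calls of Rrm2 (adjusted p from 0.0546 to 0.06), Mcm3 and Mcm4 were lost without any 1 of the 4 libraries, that of Pole without 3 of them and that of Pclaf without the first vehicle or the first PM library.

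**Figure D1:**
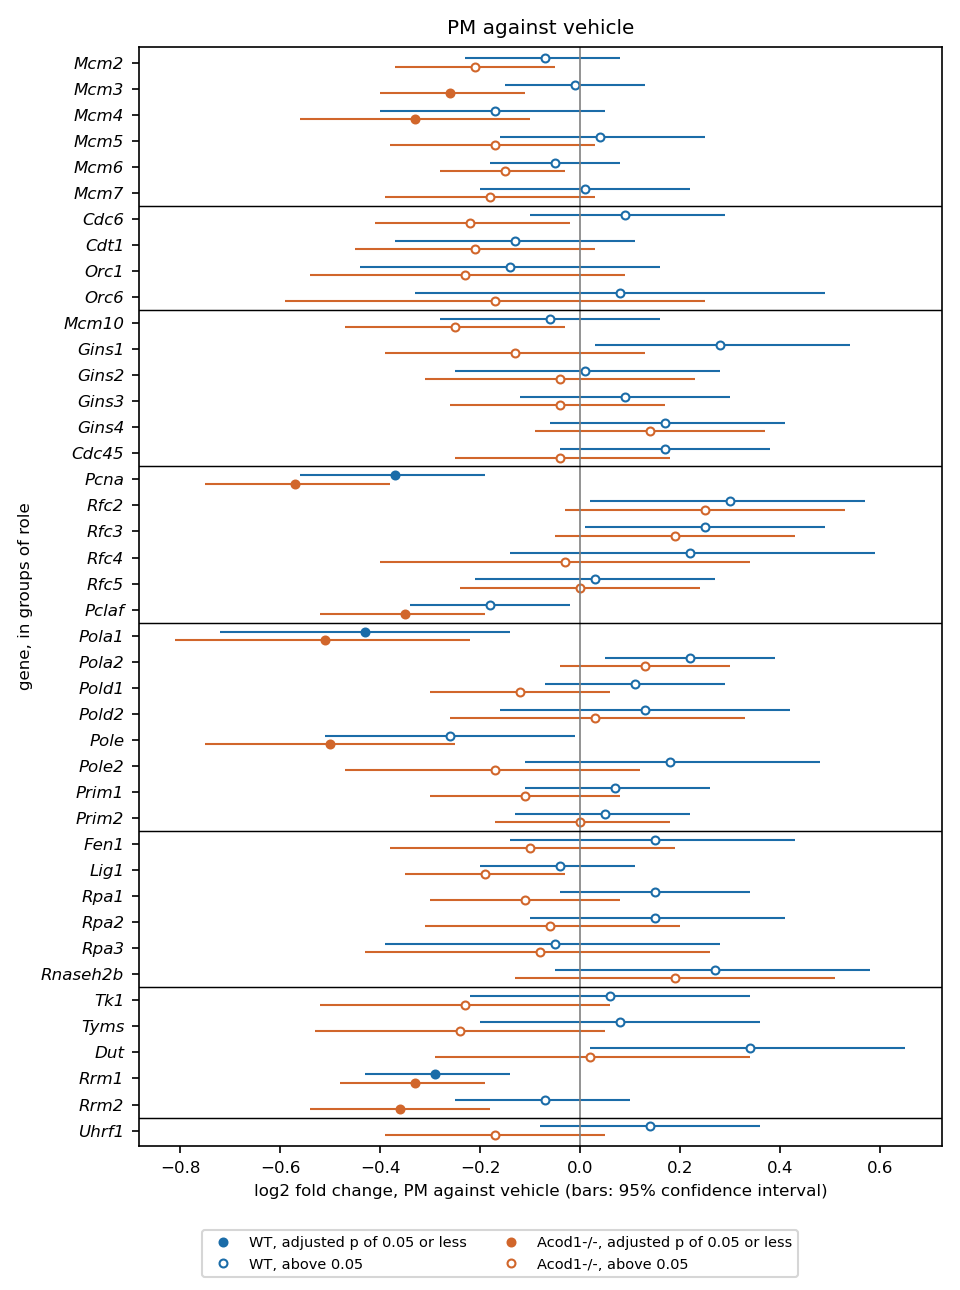
Log2 fold change of PM against vehicle (horizontal axis) for each of the 42 genes (vertical axis, in groups of role separated by lines), in WT (blue) and Acod1-/- (orange) BMDMs, with 95% confidence intervals from edgeR as bars and filled points for an adjusted p of 0.05 or less. Pcna, Pola1 and Rrm1 are filled in both colours, and all points lie between -0.57 and 0.34.

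Pretreatment with OI lowered most of the machinery. Compared with PM alone, 38 of the 42 genes fell with OI+PM in WT BMDMs and 40 of the 42 in Acod1-/- BMDMs (edgeR, adjusted p of 0.05 or less), and none rose. Of all tested genes 22.6% fell in WT and 20.6% in Acod1-/- BMDMs. The fall was at least 2-fold for 30 of the 42 genes in each genotype, where 8.49% and 7.98% of all tested genes fell that far. The median log2 fold change of the 42 was -1.64 in WT and -1.49 in Acod1-/- BMDMs, against 0.02 and -0.00 for all tested genes. In 41 of the 42 genes every OI+PM library lay below every PM library, in WT as in Acod1-/- BMDMs, where 29.4% and 37.7% of all tested genes did so, and Pcna was the exception in both. The summed level of the 42 genes was 1724 to 2128 CPM in the 8 libraries without OI and 711 to 814 CPM in the 4 with it. In bulk RNA, fewer cells that express these genes and less of their RNA per cell cannot be told apart.

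**Figure D2:**
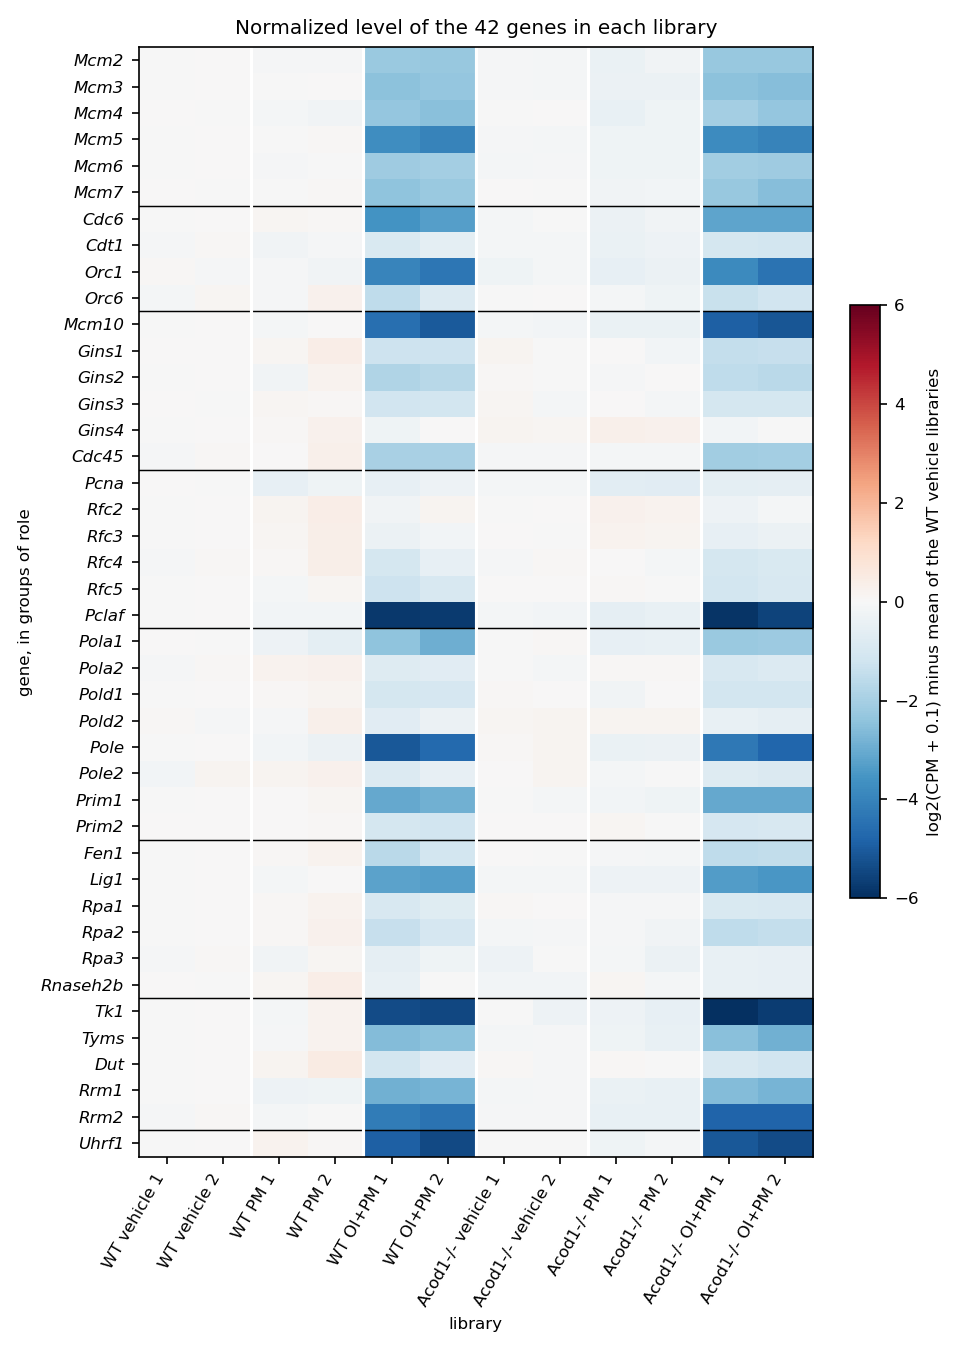
Level of each of the 42 genes (rows, in groups of role separated by lines) in each of the 12 libraries (columns), as log2(CPM + 0.1) minus the mean of the WT vehicle libraries, with blue for lower and red for higher levels. The 4 OI+PM columns are blue in most rows, darkest for Pclaf, Tk1, Uhrf1, Mcm10, Pole and Rrm2, and palest for Rfc2, Gins4, Rnaseh2b and Rfc3.

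The depth of the fall differed widely within the machinery. In WT BMDMs 6 genes kept at most 5% of their PM level, 14 kept from 5% to 25%, 10 from 25% to 50% and 12 from 50% to 100%. In Acod1-/- BMDMs the same classes held 5, 10, 15 and 11 genes, and 1 gene, Pcna, was above 100%. Across the 42 genes, which are not independent, Spearman's rho of the log2 fold change with CPM per kb of exon in the PM libraries was 0.13 in both genotypes. The rho with exonic length was -0.35 in both, longer genes having the larger falls.

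**Figure D3:**
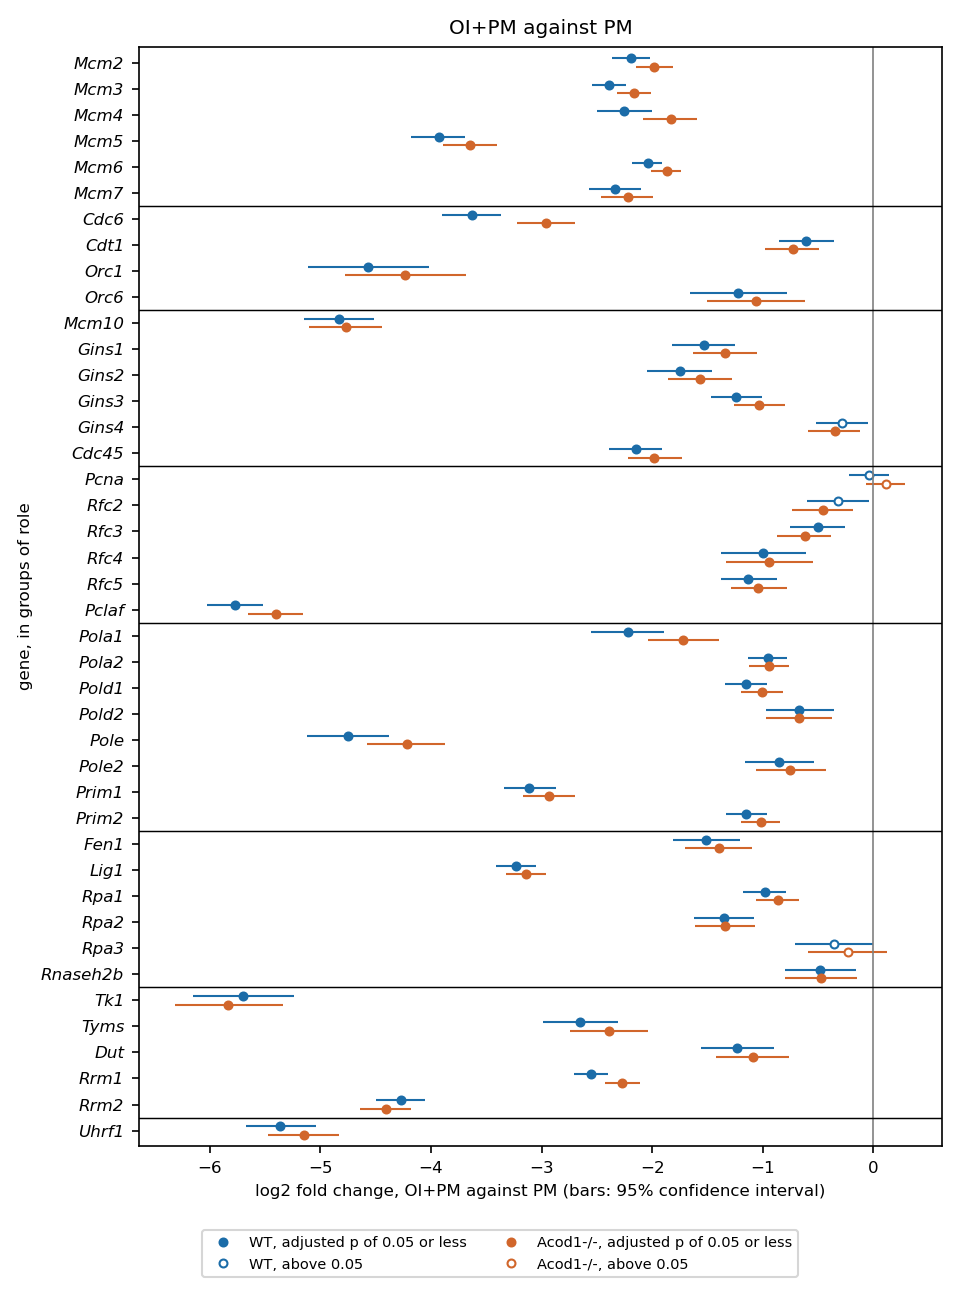
Log2 fold change of OI+PM against PM (horizontal axis) for each of the 42 genes (vertical axis, in groups of role separated by lines), in WT (blue) and Acod1-/- (orange) BMDMs, with 95% confidence intervals from edgeR as bars and filled points for an adjusted p of 0.05 or less. Values run from -5.83 (Tk1) to 0.11 (Pcna), both in Acod1-/- BMDMs, and open points are Gins4, Rfc2, Pcna and Rpa3 in WT and Pcna and Rpa3 in Acod1-/- BMDMs.

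All 6 genes of the MCM helicase, the ring that unwinds DNA ahead of the polymerases, fell at least 2-fold in both genotypes. The smallest falls of the group were those of Mcm6 in WT (log2 fold change of -2.04) and of Mcm4 in Acod1-/- BMDMs (-1.83). Mcm6, the most abundant of the 6 per length of exon (43.2 CPM per kb with vehicle in WT, where Mcm3 had 24.9 and Mcm2 had 8.69), had 198 and 205 CPM with vehicle, 190 and 199 with PM and 45.8 and 48.6 with OI+PM in WT libraries. In Acod1-/- libraries it had 186 and 192, 170 and 169, and 46.7 and 46.2 CPM. The OI+PM libraries kept about the same level in both genotypes, 24.2% (95% interval 22.1 to 26.6) of the PM level in WT and 27.4% (24.9 to 30.0) in Acod1-/- BMDMs. Mcm2, Mcm3, Mcm4 and Mcm7 kept 19.1% to 22.0% in WT and 21.4% to 28.0% in Acod1-/- BMDMs.

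Mcm5, which forms the ring in equal number with the others, stood apart from them in size. It had 86.4 and 92.1 CPM with vehicle, 88.8 and 95.1 with PM and 6.59 and 5.41 with OI+PM in WT libraries, and 83.8 and 83.2, 74.0 and 74.2, and 6.43 and 5.39 CPM in Acod1-/- libraries. It kept 6.54% (95% interval 5.52 to 7.76; edgeR, adjusted p = 4.91e-09) of the PM level in WT and 7.99% (6.75 to 9.45; adjusted p = 6.9e-09) in Acod1-/- BMDMs. These intervals did not reach those of the other MCM genes, which began at 16.8% in WT and at 18.2% in Acod1-/- BMDMs. Of the summed CPM of Mcm2 to Mcm7, Mcm5 made up 15.4% to 17.0% in the 8 libraries without OI and 5.01% to 6.24% in the 4 with it, while Mcm6 made up 34.7% to 37.1% and then 42.3% to 45%. The shares of Mcm2 were 10.1% to 11.1% without OI and 11.4% to 12.1% with it, so its groups did not overlap but lay close together. These shares are a description and were not tested.

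**Figure D4:**
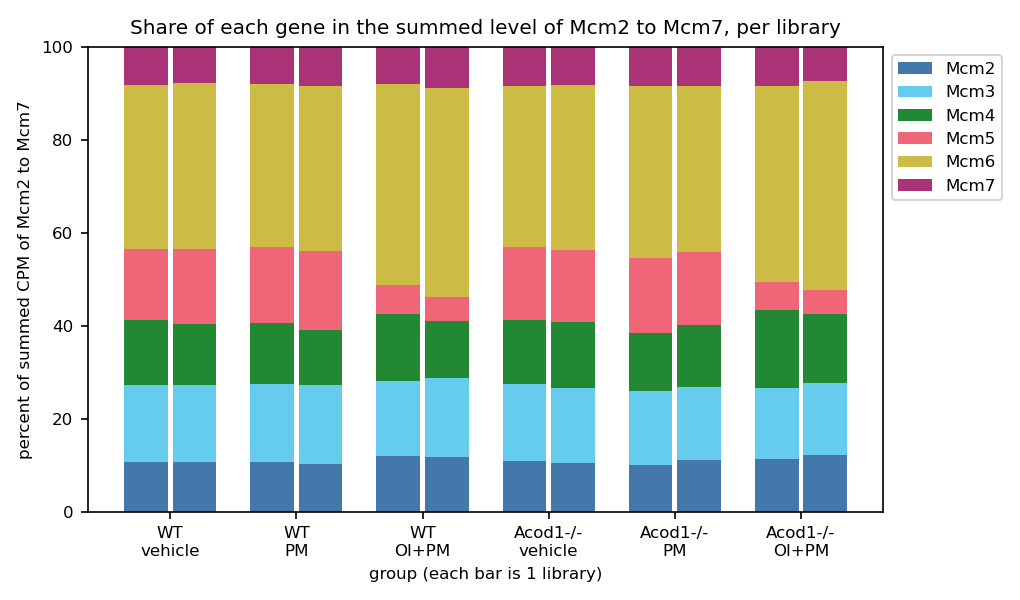
Share of Mcm2, Mcm3, Mcm4, Mcm5, Mcm6 and Mcm7 (colours) in their summed CPM, in percent (vertical axis), with 1 bar for each of the 12 libraries in groups of genotype and treatment (horizontal axis). The Mcm5 segment is 15.4% to 17.0% in the 8 bars without OI and 5.01% to 6.24% in the 4 with it.

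Origin licensing genes split into deep and shallow falls. Cdc6, the loader that works with ORC, had 13.8 and 14.0 CPM with vehicle, 15.2 and 14.5 with PM and 1.08 and 1.32 with OI+PM in WT libraries, and 13.0 and 13.5, 10.8 and 11.9, and 1.47 and 1.45 CPM in Acod1-/- libraries. Its log2 fold change with OI was -3.63 ± 0.12 (SE; edgeR, adjusted p = 1.07e-08) in WT and -2.96 ± 0.12 (adjusted p = 2.98e-08) in Acod1-/- BMDMs. Orc1, the largest ORC subunit, kept 4.22% of the PM level in WT and 5.33% in Acod1-/- BMDMs, with as few as 4 counts in a library. Orc6, the subunit that is not bound firmly to the rest of ORC, kept 42.9% and 47.9%. Cdt1, which carries the helicase to ORC, had 44.5 and 50 CPM with vehicle, 40.9 and 45.3 with PM and 25.1 and 31.6 with OI+PM in WT libraries, and 43.2 and 43.1, 36.1 and 38.3, and 22.7 and 22.1 CPM in Acod1-/- libraries. It kept 65.7% (55.5 to 77.7; edgeR, adjusted p = 0.0014) in WT and 60.1% (50.7 to 71.3; adjusted p = 0.000483) in Acod1-/- BMDMs.

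Among the genes that activate the helicase, 5 of 6 fell in WT and 6 of 6 in Acod1-/- BMDMs. Mcm10, which is needed for the loaded helicase to open DNA, had 26.2 and 27.4 CPM with vehicle, 24.5 and 27.0 with PM and 1.08 and 0.71 with OI+PM in WT libraries, and 24.7 and 23.9, 20.6 and 20.2, and 0.812 and 0.678 CPM in Acod1-/- libraries. It fell by 4.83 on the log2 scale in WT (edgeR, adjusted p = 5.83e-09) and by 4.77 in Acod1-/- BMDMs (adjusted p = 8.02e-09), to less than a CPM of 1.5 in all 4 OI+PM libraries. Cdc45, part of the active helicase, kept 22.5% and 25.4%. The 4 subunits of GINS, which work as a unit in equal number, did not fall alike. Gins1, Gins2 and Gins3 kept 34.6%, 29.7% and 42.3% in WT and 39.4%, 33.7% and 49.0% in Acod1-/- BMDMs, while Gins4 had 32.3 and 32.9 CPM with vehicle, 34.1 and 39.4 with PM and 27.3 and 33.3 with OI+PM in WT libraries. In Acod1-/- libraries Gins4 had 36.7 and 35.3, 40.5 and 38.7, and 29.5 and 32.4 CPM. Gins4 kept 82.3% (69.9 to 96.8; edgeR, adjusted p = 0.0532) in WT, which missed the threshold but passed it in 10 of 14 alternatives. Among these were DESeq2 (adjusted p = 0.0379), the replicate block (edgeR, adjusted p = 0.0403) and the length offset (-0.44; adjusted p = 9.67e-05). In Acod1-/- BMDMs Gins4 kept 78.2% (66.5 to 92.0; edgeR, adjusted p = 0.0248), a call lost without any 1 of the 4 libraries. The Gins4 intervals lay above those of the other 3 subunits in both genotypes. Of the exon length of Gins2, 2758 of 4097 bases are shared with Gse1.

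The clamp itself was the gene that moved least with OI. Pcna had 239 and 280 CPM with PM and 237 and 269 CPM with OI+PM in WT libraries, and 210 ± 4.63 CPM (mean ± SD, n = 2) and then 226 and 228 CPM in Acod1-/- libraries. The WT groups overlapped, and the Acod1-/- groups lay close together with OI+PM the higher. The log2 fold change was -0.04 ± 0.0821 (95% interval -0.22 to 0.14; edgeR, adjusted p = 0.726) in WT and 0.11 ± 0.0822 (-0.07 to 0.29; adjusted p = 0.349) in Acod1-/- BMDMs. In WT the value was -0.13 (adjusted p = 0.0378) with a correction for gene length, and 0.08 or 0.05 without the second PM or the first OI+PM library. Pcna was also the most abundant of the 42 per length of exon, with 140 CPM per kb in WT vehicle libraries against 43.2 for Mcm6, the next. It made up 12% to 16.4% of the summed CPM of the 42 genes without OI and 31.7% to 33.4% with it. Against vehicle, Pcna was lower in the OI+PM libraries of both genotypes (237 and 269 against 340 and 333 CPM in WT, 226 and 228 against 311 and 313 CPM in Acod1-/- libraries).

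The intervals of Pclaf and Tk1 overlapped in both genotypes. By estimate Pclaf, a small protein that binds PCNA, had the largest fall of the 42 in WT and the largest after Tk1 in Acod1-/- BMDMs. It had 45 and 45.6 CPM with vehicle, 40.1 and 40.0 with PM and 0.719 and 0.744 with OI+PM in WT libraries, and 41.9 and 40.7, 31.3 and 33.4, and 0.661 and 0.862 CPM in Acod1-/- libraries. Its log2 fold change was -5.77 ± 0.11 (SE; edgeR, adjusted p = 2.84e-09) in WT and -5.40 ± 0.11 (adjusted p = 3.12e-09) in Acod1-/- BMDMs, so that 1.83% and 2.36% of the PM level was left. The clamp loader subunits kept more of their level. Rfc4 and Rfc5 kept 50.1% and 45.8% in WT and 52.1% and 48.8% in Acod1-/- BMDMs, Rfc3 kept 70.5% and 65.0% (its WT call was lost with the compared groups alone; edgeR, adjusted p = 0.0836), and Rfc2 kept 80.2% (66.2 to 97.2; edgeR, adjusted p = 0.0619) in WT and 72.6% (59.9 to 88.1; adjusted p = 0.0162) in Acod1-/- BMDMs. The WT value of Rfc2 passed the threshold in 7 of 14 alternatives, among them DESeq2 (adjusted p = 0.0415) and the replicate block (edgeR, adjusted p = 0.028). Its Acod1-/- call was lost without either PM library or the first OI+PM library (log2 fold changes from -0.49 to -0.36). Exons of Rfc2, Rfc4 and Rfc5 overlap those of other genes, and the sources used here do not say whether counting used the strand.

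All 8 polymerase and primase genes fell in both genotypes, and in 3 pairs of subunits the catalytic one kept less of its level than its partner. Pole kept 3.71% (2.87 to 4.80) of the PM level in WT and 5.35% (4.19 to 6.84) in Acod1-/- BMDMs, whereas its partner Pole2 kept 55.5% (44.8 to 68.6) and 59.6% (47.9 to 74.1). Pola1 had 46.4 and 45.1 CPM with vehicle, 37.4 and 30.6 with PM and 8.56 and 5.99 with OI+PM in WT libraries, and 45.3 and 47.8, 32.0 and 33.2, and 9.71 and 10 CPM in Acod1-/- libraries. It kept 21.5% (17.1 to 27.0) and 30.3% (24.3 to 37.8), and its partner Pola2 kept 51.7% (45.8 to 58.4) and 52.2% (46.2 to 59.0). Prim1, the catalytic primase subunit, had 16.7 and 17.8 CPM with vehicle, 17.8 and 18.5 with PM and 1.98 and 2.23 with OI+PM in WT libraries, and 16.7 and 15.7, 15.6 and 14.4, and 1.98 and 1.94 CPM in Acod1-/- libraries. It kept 11.6% (9.84 to 13.6) and 13.1% (11.1 to 15.4), against 45.1% (39.8 to 51.2) and 49.4% (43.6 to 56.0) for Prim2, the other primase subunit. In these 3 pairs the intervals of the partners did not overlap in either genotype. Polymerase delta went the same way with a smaller gap. Pold1, its catalytic subunit, kept 45.1% (39.6 to 51.4) in WT and Pold2 63.0% (51.0 to 77.8). In Acod1-/- BMDMs Pold1 kept 49.6% (43.5 to 56.5) and Pold2 62.9% (51.0 to 77.6). The intervals of Pold1 and Pold2 overlapped in both genotypes, and the Pold2 call in WT was lost with the compared groups alone (edgeR, adjusted p = 0.0684).

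Of the genes that finish the lagging strand or cover single strands, 5 of 6 fell in each genotype. Lig1, the ligase that seals Okazaki fragments, had 80.1 and 80.6 CPM with vehicle, 74.1 and 81.7 with PM and 8.62 and 7.98 with OI+PM in WT libraries, and 74.4 and 74.1, 65.2 and 65.0, and 7.70 and 7.05 CPM in Acod1-/- libraries. It fell by 3.23 on the log2 scale in WT (edgeR, adjusted p = 2.9e-09) and had a log2 fold change of -3.14 in Acod1-/- BMDMs (adjusted p = 3.96e-09). Fen1, the flap nuclease that acts just before it, kept 35.1% and 37.9%, and most of its exon length is shared with another annotated gene. Rpa1, the large subunit of the single-strand binding complex, had 97.6 and 101 CPM with vehicle, 105 and 116 with PM and 51.3 and 60.7 with OI+PM in WT libraries, and 104 and 100, 94.8 and 94.8, and 53.4 and 50.7 CPM in Acod1-/- libraries. It kept 50.7% (44.3 to 57.9) and 54.9% (48.0 to 62.8), Rpa2 kept 39.2% and 39.5%, and Rpa3 kept 78.0% (61.1 to 99.7; edgeR, adjusted p = 0.0922) and 85.1% (66.4 to 109; adjusted p = 0.302). In WT the Rpa3 value passed the threshold in 6 of 14 alternatives, with -0.53 (edgeR, adjusted p = 0.00324) under the length offset against -0.36. Rnaseh2b, a subunit of the enzyme that removes ribonucleotides from DNA, kept 71.8% and 72.0%, and its call was lost in each genotype when certain libraries were left out (in WT without the second PM or the first OI+PM library, with adjusted p of 0.135 and 0.0789, or with the compared groups alone, with adjusted p of 0.149, and in Acod1-/- BMDMs without the first PM library or either OI+PM library, with adjusted p from 0.113 to 0.18).

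All 5 nucleotide synthesis genes fell at least 2-fold in both genotypes. Tk1, the S phase thymidine kinase, kept 1.93% (1.41 to 2.64; edgeR, adjusted p = 1.59e-08) of the PM level in WT and 1.76% (1.26 to 2.47; adjusted p = 2.3e-08) in Acod1-/- BMDMs. Tyms, which makes dTMP from dUMP, kept 16% and 19.1%, and Dut, which breaks down dUTP and supplies that dUMP, kept 42.6% and 47.0%. Rrm1 had 24.6 and 25.5 CPM with OI+PM in WT and 29.1 and 26.2 CPM in Acod1-/- libraries, 17.0% and 20.7% of the PM level. Rrm2, the regulated subunit of the same enzyme, had 60 and 66.4 CPM with vehicle, 58.5 and 61.8 with PM and 3.38 and 2.81 with OI+PM in WT libraries, and 59.4 and 59.5, 46.6 and 46.0, and 2.19 and 2.16 CPM in Acod1-/- libraries. It kept 5.17% (4.43 to 6.03) and 4.71% (4.01 to 5.53), intervals below those of Rrm1 (15.3 to 19.0 and 18.6 to 23.1). Rrm2b, the small subunit known from DNA repair in resting cells and not among the 42, had 16.5 and 12.2 CPM with PM and 15.4 and 12.9 with OI+PM in WT libraries (log2 fold change of -0.02; edgeR, adjusted p = 0.914) and was named after its values were seen. Uhrf1, which brings maintenance methylation to newly copied DNA, had 47.1 and 48.5 CPM with vehicle, 54.6 and 50.8 with PM and 1.53 and 1.01 with OI+PM in WT libraries, and 47.3 and 46.9, 40.0 and 43.6, and 1.29 and 1.05 CPM in Acod1-/- libraries. Its log2 fold change was -5.36 in WT and -5.15 in Acod1-/- BMDMs.

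**Figure D5:**
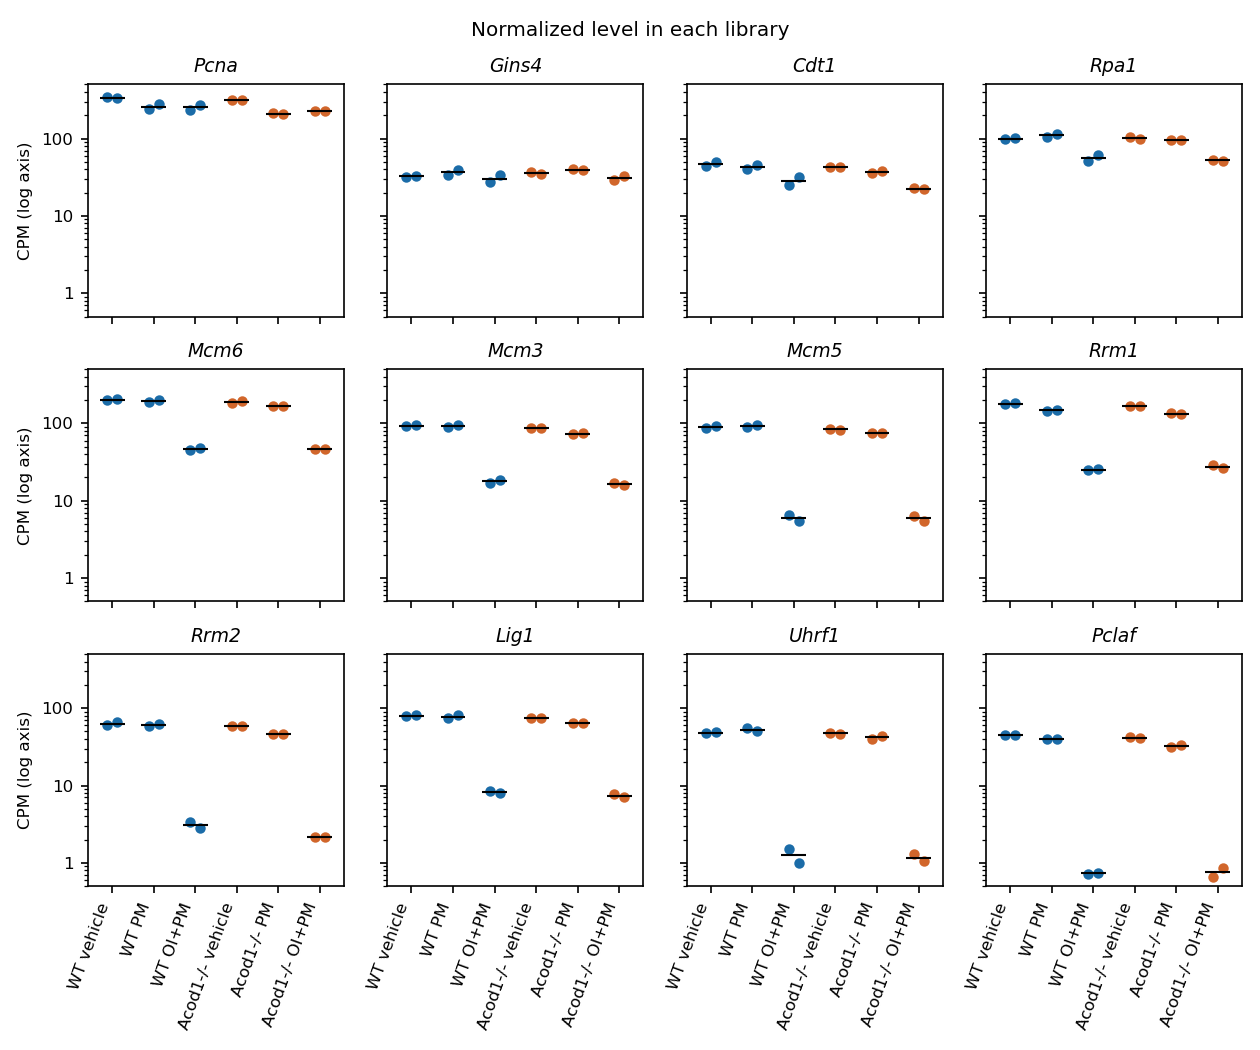
CPM on a log axis (vertical) of 12 of the genes in each library, by group (horizontal axis), with WT in blue, Acod1-/- in orange and the mean of the 2 libraries as a line. Pcna lies at 226 to 269 CPM in the 4 libraries with OI, whereas Pclaf lies at 31.3 to 45.6 CPM in the 8 libraries without OI and at 0.661 to 0.862 CPM in the 4 with it.

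The low levels with OI+PM were also low against vehicle. In WT BMDMs 38 of the 42 genes were lower with OI+PM than with vehicle, and in Acod1-/- BMDMs 38 of the 42, where 31.9% and 26.7% of all tested genes were lower. The medians were -1.55 in both genotypes, with ranges of -5.95 to -0.02 and of -6.06 to -0.21. No OI-only group was sequenced, so OI without PM cannot be compared here.

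The response to OI was compared between genotypes. As an interaction, edgeR called none of the 42 and 0% of all tested genes, with 5 of the 42 and 717 of the 11228 at an unadjusted p below 0.05, the 5 all with the smaller fall in Acod1-/- BMDMs. DESeq2 called 0 of the 42 and 34 of all genes. The 5 were Mcm3, Mcm4, Cdc6, Pola1 and Rrm1, and the largest difference was that of Cdc6, 0.67 on the log2 scale (95% interval 0.27 to 1.08; adjusted p = 0.528). Over the 42 genes the differences ran from -0.14 to 0.67, with a median of 0.14 and 35 of the 42 above 0, against a median of -0.03 and 5031 above 0 for the 11228 tested genes. Without the first WT OI+PM library 1 gene was called. With PM alone, DESeq2 called 8 of the 42 and 434 of all genes between the genotypes. By edgeR the genotypes differed for 2 of the 42 genes, both lower in Acod1-/- BMDMs, where 1.3% of all tested genes were lower. At an unadjusted p below 0.05, 19 of the 42 were lower and none higher, against 868 lower and 709 higher of the 11228 tested genes. Mcm3 had 90.7 and 95.4 CPM in the WT and 72.8 and 74.3 CPM in the Acod1-/- PM libraries (log2 fold change of -0.34; edgeR, adjusted p = 0.0236, and from 0.000141 to 0.188 over the alternatives), and Rrm2 had 58.5 and 61.8 against 46.6 and 46.0 CPM (-0.38; adjusted p = 0.0378, and from 0.00307 to 0.244). Estimates were below 0 for 40 of the 42 genes, with a median of -0.25, against 5610 of the 11228 tested genes and a median of 0.00. This comparison shares the PM libraries of both genotypes with the interactions of PM and of OI with genotype, so the estimates are not independent. The calls of Mcm3 and Rrm2 were both lost without any 1 of the 4 libraries. Mcm3 itself had 92.8 and 94.4 CPM with vehicle in WT and 88.4 and 87.4 CPM in Acod1-/- libraries, and 17.0 and 18.5 against 16.8 and 16.1 CPM with OI+PM. With vehicle, none of the 42 was called in the fit to all groups, where 0.935% of all tested genes were lower in Acod1-/- BMDMs. None had an unadjusted p below 0.05 in that fit or was called by DESeq2. With the vehicle groups fitted alone edgeR called 9 of the 42, all lower. The count over all tested genes with the vehicle groups alone is not given here, so the 9 cannot be set against it. With OI+PM, Rrm2 was lower in Acod1-/- BMDMs (-0.51; edgeR, adjusted p = 0.0392), where 4.45% of all tested genes were lower. That call was lost without either Acod1-/- OI+PM library and without the first WT OI+PM library (adjusted p from 0.113 to 0.19). With the length offset the Rrm2 value was -0.42 (edgeR, adjusted p = 0.086), and without the first WT OI+PM library it was -0.37. Leaving out that library also changed the calls of other genes of the 42, and the count over all tested genes in that fit is not given here.

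Related genes outside the 42 were counted on 5 lists for the same comparison. Of 40 tested other replication genes, 25 fell and 6 rose with OI in WT BMDMs, where 22.6% of all tested genes fell and 21.3% rose, and their median log2 fold change was -0.78. In Acod1-/- BMDMs 25 fell and 2 rose, where 20.6% fell and 13.9% rose. The largest falls in WT were those of Clspn (-4.46), an adaptor of the replication checkpoint, Ticrr (-4.25), an origin firing factor, and Exo1 (-3.91), a nuclease. The largest rises were those of Asf1a (0.83), a histone chaperone, and of Pold4 (0.49) and Pole4 (0.47), small accessory subunits of the polymerases. Asf1a had 12.9 and 12.1 CPM with PM and 18.9 and 25.7 CPM with OI+PM in WT libraries. The Pold4 and Pole4 calls were lost without the first WT PM library or the second WT OI+PM library, with values from 0.21 to 0.34. Both were also lost with the compared groups alone (edgeR, adjusted p = 0.147 and 0.188), and that of Pole4 with total count scaling (0.33; adjusted p = 0.0507). Neither gene was called in Acod1-/- BMDMs (0.07 and 0.32; edgeR, adjusted p = 0.717 and 0.111).

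Among 18 tested genes of dNTP synthesis and breakdown, 8 fell and 3 rose in WT BMDMs with a median of -0.07, and 6 fell and 2 rose in Acod1-/- BMDMs, where 22.6% of all tested genes fell and 21.3% rose in WT and 20.6% and 13.9% in Acod1-/- BMDMs. Cmpk2, a mitochondrial nucleotide kinase induced by interferon, had 10.4 and 10.4 CPM with vehicle, 51.4 and 58.0 with PM and 4.34 and 2.98 with OI+PM in WT libraries, so it rose with PM (2.39 on the log2 scale) and fell with OI (-3.89). Shmt1 (-2.97), which supplies a folate cofactor for dTMP synthesis, fell with OI. Mthfd2, the mitochondrial folate enzyme, rose from 56.6 and 60.9 CPM to 136 and 170 CPM (1.38; edgeR, adjusted p = 1.94e-06), and Dguok and Cmpk1 rose by 0.49 each, calls lost with the compared groups alone (adjusted p = 0.11 and 0.0543). In Acod1-/- BMDMs the value of Dguok was 0.16 (adjusted p = 0.282). With PM alone in WT BMDMs, Dck (0.40) and Samhd1 (0.33), a kinase that salvages and an enzyme that breaks down deoxynucleotides, rose beside Cmpk2, 3 rises and no fall among the 18, where 12.6% of all tested genes rose. The Samhd1 call in WT was lost with total count scaling (0.24; edgeR, adjusted p = 0.0612) and without the second WT vehicle library (0.29). With PM in Acod1-/- BMDMs 2 of these 18 rose and 2 fell, against 1344 and 1340 of the 11228 tested genes. Dck was not called there (0.30; edgeR, adjusted p = 0.0805). Of 18 tested genes of de novo purine and pyrimidine synthesis, 8 fell and 3 rose with OI in WT and 6 fell and 4 rose in Acod1-/- BMDMs, with none past 2-fold, against the same shares of all tested genes. Their largest falls were those of Prps1 (-0.80), Prps2 (-0.56) and Ctps (-0.54), and their rises those of Ctps2 (0.33), Adss (0.31) and Atic (0.25). With the compared groups alone the calls of these 3 genes (edgeR, adjusted p from 0.13 to 0.237) and of Prps2 (adjusted p = 0.0725) were lost, and that of Atic also with total count scaling (0.12; adjusted p = 0.164). With PM in WT BMDMs only Prps2 fell among them (-0.38), whereas 4 of the 18 fell and 1 rose with PM in Acod1-/- BMDMs.

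Of the 18 tested genes of the E2F and RB family, 9 fell and 3 rose with OI in WT and 8 fell and 2 rose in Acod1-/- BMDMs, where 22.6% of all tested genes fell and 21.3% rose in WT and 20.6% and 13.9% in Acod1-/- BMDMs. E2f7, a repressor of the family, had 7.43 and 6.89 CPM with PM and 0.0898 and 0.0677 CPM with OI+PM in WT libraries. Its summed counts were 499 and 5 in WT and 439 and 9 in Acod1-/- BMDMs. After scaling by library size, 1.11% was left in WT (exact 95% interval for counting error 0.359 to 2.61) and 2.15% in Acod1-/- BMDMs (0.974 to 4.11). E2f8 (-4.00), a repressor of the same kind, and Mybl2 (-3.60), an activator of late cell cycle genes, fell next. E2f4 (0.27), E2f5 (0.47) and E2f6 (0.19), known as repressors, rose in WT. The E2f6 call (edgeR, adjusted p = 0.0496) was lost in 8 of 14 alternatives, DESeq2 (adjusted p = 0.0574) and total count scaling (0.06; adjusted p = 0.505) among them. The E2f5 call was lost without either PM library or the second OI+PM library (0.22 without the last), and E2f4 lost its call with total count scaling (0.14; adjusted p = 0.0941) and was not called in Acod1-/- BMDMs (0.11; adjusted p = 0.268). With the compared groups alone the WT calls of E2f4 and E2f5 were lost (adjusted p = 0.217 and 0.171). The activators were named after their values were seen: E2f1 had 54.6 and 60.5 CPM with PM and 35.4 and 39.5 CPM with OI+PM in WT libraries (-0.62), E2f2 had 21.4 and 19.6 and then 9.40 and 9.20 CPM (-1.14), and E2f3 had 25 and 22.9 and then 30.6 and 23.3 CPM (0.17; edgeR, adjusted p = 0.238). With PM in WT BMDMs 4 of the 18 fell, where 12.2% of all tested genes fell, led by E2f7 (-0.75), Tfdp2 (-0.61) and E2f8 (-0.44). With PM in Acod1-/- BMDMs 7 of the 18 fell and 1 rose, against 1340 and 1344 of the 11228 tested genes.

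Of the 17 proliferation markers, 16 fell with OI in each genotype, 15 of them at least 2-fold, where 8.49% of all tested genes in WT and 7.98% in Acod1-/- BMDMs fell at least 2-fold, with a median of -3.58 in WT BMDMs, led by Ccna2 (-5.25), Ccnb1 (-4.33) and Mki67 (-4.24). With PM alone 10 of the 17 fell in WT BMDMs, where 12.2% of all tested genes fell, with a median of -0.52, led by Ccnd1 (-0.87), Mki67 (-0.86) and Ccnb2 (-0.76). In Acod1-/- BMDMs 13 of the 17 fell with PM, where 11.9% of all tested genes fell. Mki67, the Ki-67 antigen, had 333 and 322 CPM with vehicle, 198 and 162 with PM and 11.6 and 7.38 with OI+PM in WT libraries. Among the 40 tested other replication genes, 10 fell with PM in Acod1-/- BMDMs and none rose. All 11228 tested genes had 1340 falls and 1344 rises in that comparison. Tonsl, a replication fork protein, had a value of 0.41 there (edgeR, adjusted p = 0.0801). In WT BMDMs Clspn (-0.31) and Ticrr (-0.44) fell with PM and Tonsl (0.53) rose. These 3 calls, and those of E2f8, Prps2 and Dck, were each lost without either WT vehicle library, and without the second WT PM library (for Dck, the first). With the length offset the values were -0.19 (edgeR, adjusted p = 0.0502) for Clspn, -0.24 (adjusted p = 0.11) for Ticrr and 0.35 (adjusted p = 0.0559) for Dck, whose call was also lost with total count scaling (adjusted p = 0.103).

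The genes outside the 42 whose levels over the 12 libraries were most like the mean log2 CPM of Mcm2 to Mcm7 were Ccne2 (Pearson's r of 0.999), Esco2, Rad51ap1, Chtf18 and Clspn (0.998 each). Of the 42 genes, 36 had an r above 0.9 with that mean. Mcm2 to Mcm7, which make up the mean, are among these 36, and the same count over all tested genes is not given here. The 12 points of each profile share the same gap between the 8 libraries without OI and the 4 with it, so the values are a description. Pcna had the lowest r of the 42, at 0.442, followed by Rfc2 (0.578) and Gins4 (0.665).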

How the data were processed

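RNA-seq of 12 BMDM libraries was analysed from the deposited counts per gene, which the authors made by aligning single-end reads to GRCm38 with STAR 2.5.3a and counting with featureCounts (FastQC 0.11.5 and Picard 2.9.0 are also in the submitters' processing notes). Strand setting, annotation release and treatment of multiply mapped reads are not given in the sources used here. Genes with CPM above 1.5 in 2 or more libraries were kept (11228), and CPM used TMM-scaled library sizes. One model with 6 group means was fitted with edgeR 4.0.16 (quasi-likelihood test, two-sided, R 4.3.3), with Benjamini-Hochberg adjustment over all tested genes and called at an adjusted p of 0.05 or less. The scripts were tested on simulated data. DESeq2 1.42.0 was an alternative, as were the compared groups alone, RLE or total count scaling, a minimum of 10 counts in total, CPM above 1.5 in all 12 libraries, a replicate block, a gene length offset (also with the block), a 2-fold rule and leaving out each library. Exonic length was the union of annotated exons, and promoter windows came from RefSeq. The members and lists were chosen with earlier results of these data known. Library values are given, for each role, for the gene with the highest mean CPM and that with the smallest p for OI in WT, and for genes called between genotypes. Of the related lists, up to 3 rises and 3 falls are named, and 5 genes by likeness of profile. Some genes that this rule names are not reported here.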

Additional observations from a re-analysis of the deposited data

How the results depend on the processing

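With OI, the count of members called stayed within 1.5 times the reported count under every alternative run, in both genotypes and against PM or vehicle, and the median log2 fold change against PM ranged from -1.81 to -1.27 in WT. For PM in WT (3 called), total count scaling, the length offset, the length offset with the block and the block with the Acod1-/- PM numbers exchanged each gave 5, the 2-fold rule 0, and leaving out a library 0 to 8. For PM in Acod1-/- BMDMs (8), the compared groups alone gave 19, total count scaling 14, the length offset with the block 14, the 2-fold rule 0 and leaving out a library 2 to 5. The compared groups alone called 5658 of all 11228 tested genes for PM in Acod1-/- BMDMs. For genotype, the compared groups alone gave 9 with vehicle (0 reported), a fit whose count over all tested genes is not given here. With PM (2) DESeq2 gave 8, the groups alone 0, total count scaling 1, the 10-count filter 1, the length offset 8, with the block 7, the exchanged block 4, the 2-fold rule 0 and leaving out a library 0 to 1. With OI+PM (1) the groups alone, total count scaling, both other filters and the 2-fold rule gave 0, the length offset 2, with the block 3, the exchanged block 2 and leaving out a library 0 to 11. The OI interaction gave 0 to 1 on leaving out a library. Pcna with OI in WT (-0.04) ranged from -0.16 to 0.08 on leaving out a library, turning to 0.08 without the second PM library and to 0.05 without the first OI+PM library.

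For the related lists with PM in WT, other replication genes (3) gave 5 in the groups alone, 7 with total count scaling, 1 with CPM in all libraries, 6 with the length offset and with its block, 10 with the exchanged block, 0 by the 2-fold rule and 0 to 8 on leaving out a library. The dNTP genes (3) gave 5 with the length offset and block, 1 by the 2-fold rule and 1 to 3 on leaving out a library. The purine and pyrimidine genes (1) gave 2, 5 and 5 with total count scaling, the length offset and its block, and 0 by the 2-fold rule and 0 to 1 on leaving out a library. The E2F and RB genes (4) gave 7 with total count scaling, 2 with CPM in all libraries, 8 with the exchanged block, 0 by the 2-fold rule and 2 to 8 on leaving out a library, and proliferation markers (10) 6 with CPM in all libraries and 0 by the 2-fold rule. With OI in WT, the groups alone gave 5 dNTP genes (11 reported) and 2 purine and pyrimidine genes (11), the 2-fold rule 19 other replication (31), 5 dNTP, 0 purine and pyrimidine and 5 E2F and RB genes (12), and CPM in all libraries 9 proliferation markers (16), as in Acod1-/- BMDMs (16). With OI in Acod1-/- BMDMs the 2-fold rule gave 17 other replication (27), 4 dNTP (8), 0 purine and pyrimidine (10) and 4 E2F and RB genes (10), CPM in all libraries 6 E2F and RB genes, and leaving out a library 5 to 10 purine and pyrimidine genes. The causes of these moves were not tested.

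Replicate numbers do not establish a pairing, since same-numbered WT libraries correlated at 0.23 to 0.73 in their deviations but the Acod1-/- PM libraries at -0.41 with WT PM. With the replicate block, 3 and 8 members were called for PM, 40 and 40 for OI against PM, 39 and 38 against vehicle, and 0, 2 and 1 between genotypes. The exchanged numbering was chosen after seeing the data. Total count scaling moved the median of all genes to -0.107 for OI in WT, and to -0.200 and -0.154 against vehicle in WT and Acod1-/- BMDMs. A library alone in its group was assumed to vary like the other groups. Low counts limit Orc1 and E2f7 with OI+PM, and other genes with deep falls also had few counts there. Tk1 had 20 and 16 counts in the WT and 10 and 15 in the Acod1-/- OI+PM libraries. Pclaf had 24 and 22 counts in the WT and 22 and 28 in the Acod1-/- OI+PM libraries.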
